A study of Mus musculus with 6 samples.

Results

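Osteocalcin and matrix Gla protein are small proteins of mineralized matrix that carry gamma-carboxyglutamate (Gla), a form of glutamate that binds calcium and is made in the secretory pathway with vitamin K as cofactor. The genes described here are *Bglap1* and *Bglap2* (osteocalcin), *Mgp* (matrix Gla protein), *Gas6* (a Gla protein that is the ligand of a family of receptor tyrosine kinases), *Ggcx* (the carboxylase that makes Gla) and *Vkorc1* (the reductase that returns oxidized vitamin K to its active form). They were taken as every row of the array table whose gene symbol is one of these 6 names or an older form of one. That gave 14 probes for 6 genes, of 45281 probes and 31508 symbols on the array, and *Mgp* was found under its older symbol *Mglap*.

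The samples were cortical bone tubes from the tibia and femur of C57BL6 mice aged 3 months, from which marrow and surface cells were removed by flushing and by digestion with collagenase and trypsin. After a night in medium with fetal calf serum, tubes were kept for 24 h either untreated (control, 3 arrays) or with PTH 1-34 at 250 nM (PTH, 3 arrays). PTH 1-34 is the active fragment of parathyroid hormone, and PTH is known to act on osteocytes, the cells that lie within the bone matrix. The RNA of each preparation came from the bones of several mice and was read on 1 Illumina mouse bead array. No label says whether the 3 preparations of a group came from separate experiments, so p-values measure the spread between these arrays. Because the RNA is of whole tissue, fewer cells of a type and less RNA per cell cannot be told apart.

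Osteocalcin is the most abundant protein of bone outside collagen and is secreted by osteoblasts and osteocytes, and its gene is a standard marker of the mature osteoblast lineage. Matrix Gla protein is made mainly by cartilage and vascular smooth muscle and is known as an inhibitor of calcification. Both become able to bind calcium only after the carboxylase has acted on them, which oxidizes vitamin K, and the cycle is closed when the reductase restores it.

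In the mouse the osteocalcin genes named here lie close together. On build GRCm38.p6 RefSeq places *Bglap* at chr3:88383495-88384466 and *Bglap2* at chr3:88377736-88378701, so that both lie within 6731 bases. In RefSeq the symbol *Bglap1* is an alias shared by *Bglap* and *Bglap2*, and their transcripts are close copies, so a probe listed as *Bglap1* or *Bglap2* may take signal from both genes. Which transcripts each probe matches was not analysed here, because probe sequences were not used. The other members are single genes, *Mgp* at chr6:136872435-136875823, *Ggcx* at chr6:72414279-72433359, *Vkorc1* at chr7:127893063-127895658 and *Gas6* at chr8:13465374-13494535.

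The 250 bases before the start of *Bglap* are shown because the osteocalcin probes were read together, and because factors such as Runx2 are known to bind at this promoter. The sequence is from RefSeq, 5′ to 3′ on the strand of the gene, which is the minus strand. Capitals mark ACCACA, the core letters bound by Runx factors, and TATAAA, the letters of the promoter box that TBP binds, both searched on either strand. The stretch is chr3:88384467-88384716.
Bglap: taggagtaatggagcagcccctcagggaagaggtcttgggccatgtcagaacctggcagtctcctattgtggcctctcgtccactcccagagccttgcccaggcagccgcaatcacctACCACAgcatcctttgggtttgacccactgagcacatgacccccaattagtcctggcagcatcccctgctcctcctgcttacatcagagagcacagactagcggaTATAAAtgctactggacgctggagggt
ACCACA began 132 bases and TATAAA 27 bases before the start, each once. The letters alone are common, since ACCACA occurs in 14% and TATAAA in 12.4% of 32851 RefSeq promoters when searched over the same length, and the 2 motifs share no bases. Stretches for *Bglap2* and *Mgp* were not analysed here.

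On each array between 34.2% and 38.4% of all probes were above background, taken as a detection p-value under 0.05. Mean signal lay between 298 and 349 on 5 arrays and was 429 on PTH array 3, which makes the normalization matter for the values that follow. Levels are given as log2 of the background-corrected and quantile-normalized signal, and a difference is the PTH mean less the control mean on that scale. The test took in the 16214 probes that were above background on 3 arrays or more. Of the 14 member probes 12 were tested. The others, *Bglap1* ILMN_3028702 and *Ggcx* ILMN_1226632, were not above background on any array, so no fold is given for them.

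None of the 12 member probes passed limma's test at an adjusted p under 0.05, against 0.993% of all tested probes called lower and 0.617% called higher with PTH. Without adjustment 7 of the 12 had a p under 0.05, where 14.6% of all tested probes did. The mean was lower with PTH for 10 probes and higher for 2, and the median difference of the 12 was −0.30, beside 0.0036 over all tested probes. On 6 of the 12 all PTH arrays were below all control arrays, as they were on 10.5% of all probes, and on 1, that of *Mgp*, all PTH arrays were above, as on 10.3% of all probes. The 12 probes read 6 genes, and the osteocalcin probes may share signal, so these counts are not of independent units. The member probes differed in how they leaned. The tested probes of osteocalcin, *Ggcx* and *Gas6* had a lower mean with PTH and that of *Mgp* a higher one, while those of *Vkorc1* lay between −0.20 and 0.04.

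**Figure D1:**
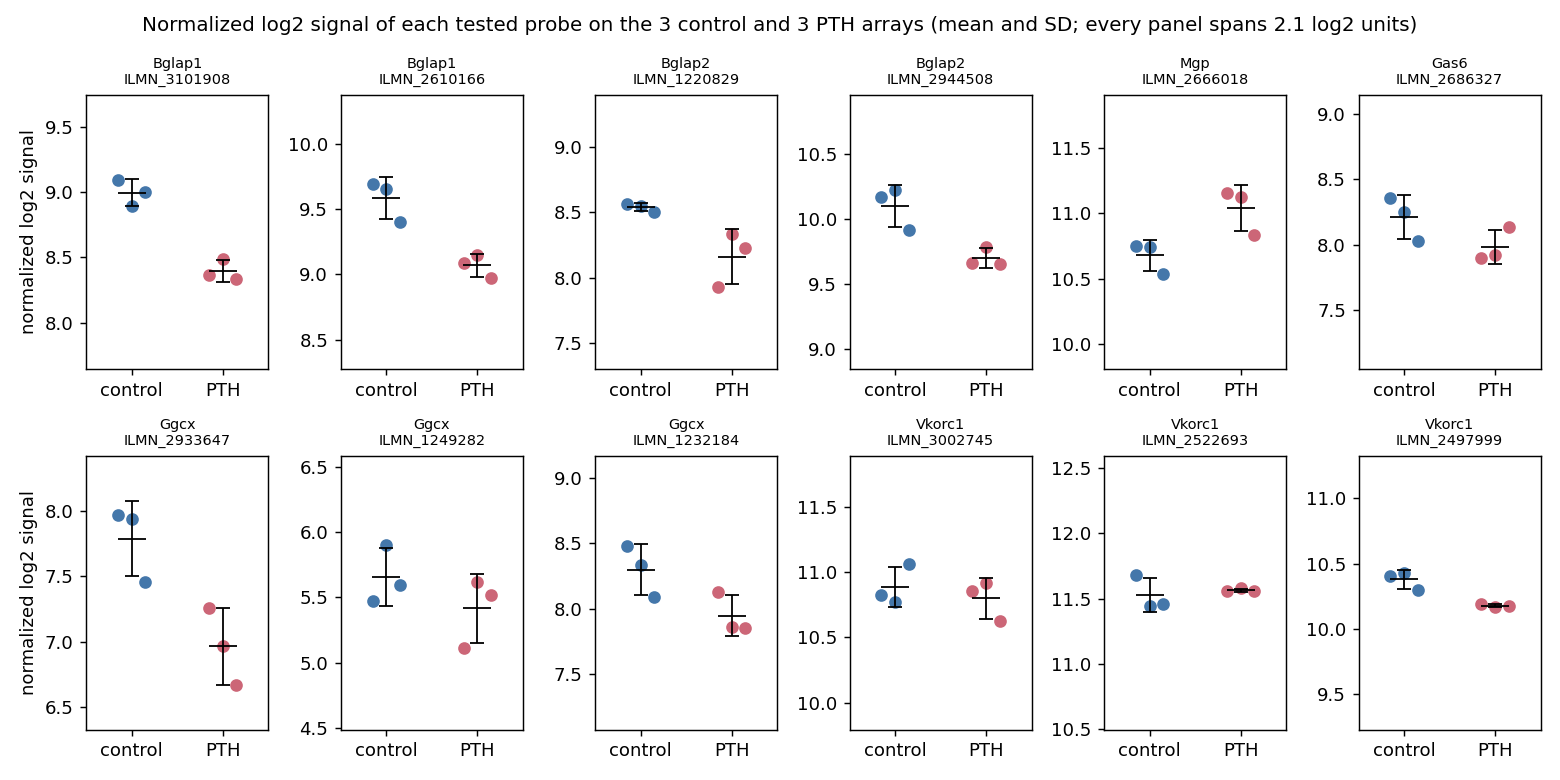
Normalized log2 signal (y axis) of the 12 tested member probes on the 3 control arrays (blue) and the 3 PTH arrays (red), with the mean and SD as bars and every panel spanning the same log2 range. The groups are apart, PTH below, for the 4 osteocalcin probes, *Ggcx* ILMN_2933647 and *Vkorc1* ILMN_2497999, apart with PTH above for *Mgp*, and overlapping for the rest.

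All 4 tested osteocalcin probes had a lower mean with PTH. On *Bglap1* ILMN_3101908 the level was 9.10, 8.89 and 9.0 in control (arrays 1 to 3 in that order, as throughout) and 8.36, 8.49 and 8.33 with PTH. The groups did not overlap. The mean was 9.0 ± 0.10 (SD, n = 3) in control and 8.39 ± 0.08 (SD, n = 3) with PTH, a difference of −0.60 with an SE of 0.12, which is 1.52-fold lower. The adjusted p from limma was 0.0640, the smallest of any member probe, and the 95% interval of the difference ran from −0.89 to −0.32.

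The other tested *Bglap1* probe, ILMN_2610166, read 9.69, 9.66 and 9.40 in control and 9.09, 9.15 and 8.97 with PTH. Here too the groups were apart, with control array 3 the lowest of its group. The difference was −0.51 with an SE of 0.13, or 1.43-fold lower, and limma's adjusted p was 0.127. The silent *Bglap1* probe ILMN_3028702 lay between 0.931 and 1.09 times the array background, whereas the 2 tested probes of that symbol lay at 3.35 to 7.35 times it.

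*Bglap2* was read by 2 probes. The brighter one, ILMN_2944508, read 10.17, 10.22 and 9.92 in control and 9.66, 9.79 and 9.65 with PTH, a difference of −0.40 with an SE of 0.13, or 1.32-fold lower. The dimmer one, ILMN_1220829, read 8.56, 8.55 and 8.50 in control and 7.93, 8.33 and 8.22 with PTH, a difference of −0.38 with an SE of 0.14, or 1.30-fold lower. For both, the PTH arrays were all below the control arrays, PTH array 2 coming nearest to them. Limma's adjusted p was 0.213 for the brighter and 0.267 for the dimmer probe.

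These separations depended on how the arrays were scaled. In the deposited signals, before any scaling, *Bglap1* ILMN_3101908 read 527, 568 and 594 in control and 355, 459 and 551 with PTH, so that PTH array 3 lay within the control range. In those signals the groups overlapped for each of the 4 osteocalcin probes, and on *Bglap2* ILMN_1220829 PTH array 2 as well as array 3 lay above control array 1. With quantile normalization, with or without background correction, and with cyclic loess all 4 were apart, and when each array was scaled by its median 2 of 4 were. With median scaling the median difference of all tested probes was 0.111. Relative to that value the 4 osteocalcin probes still lay lower, with *Bglap1* at −0.56 and −0.46 and *Bglap2* at −0.35 and −0.36. Under that scaling limma's adjusted p of *Bglap1* ILMN_3101908 was 0.913, and over the 8 other settings tried it ran from 0.00269 to that value.

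**Figure D2:**
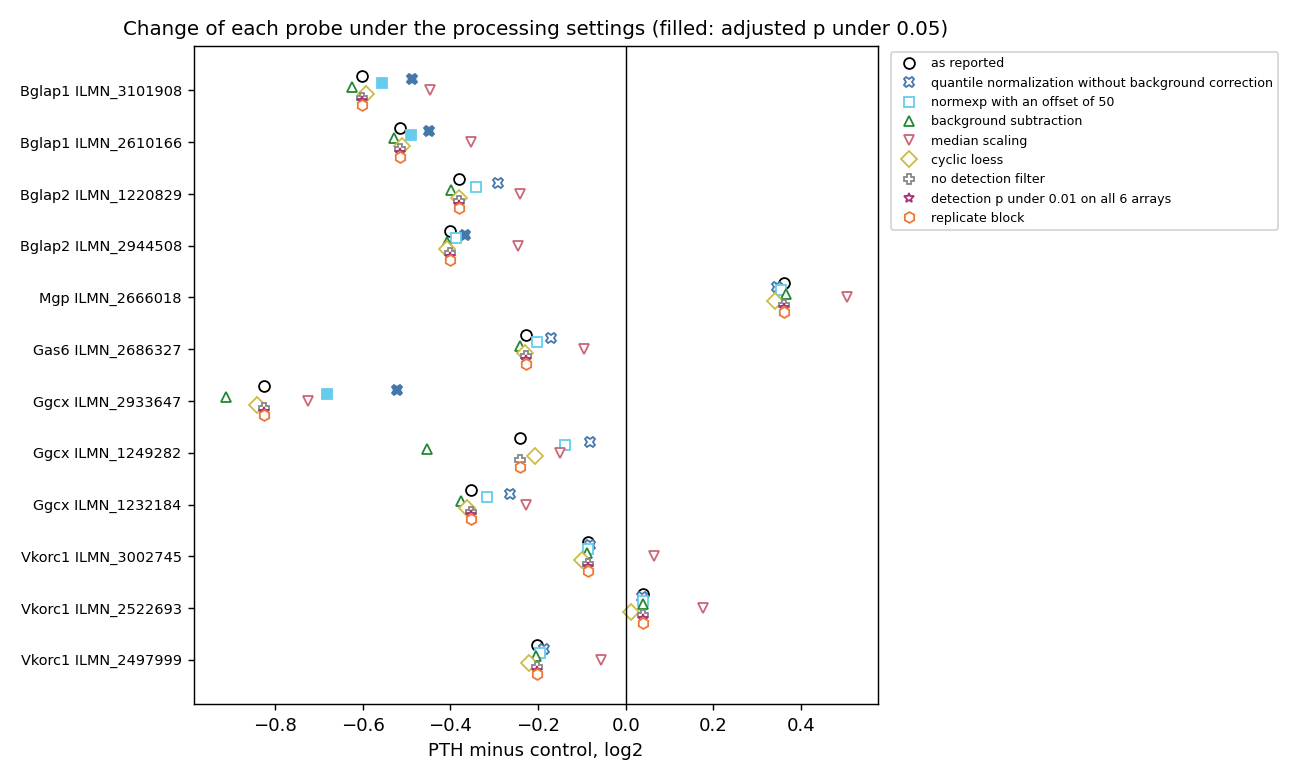
PTH minus control difference in log2 (x axis) of each tested probe (y axis) as reported and under 8 other settings, with filled symbols where limma's adjusted p was under 0.05. Every osteocalcin probe stays left of 0 and *Mgp* right of 0 in each setting drawn, *Vkorc1* ILMN_3002745 crosses 0 under median scaling, and filled symbols occur under quantile normalization alone, an offset of 50 and the stricter detection filter.

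Compared with each other, the osteocalcin probes did not differ detectably in how far PTH and control stood apart. Over the 6 pairs of the 4 probes the largest gap was 0.22, between *Bglap1* ILMN_3101908 and *Bglap2* ILMN_1220829, where the within-array difference was 0.46 ± 0.10 (SD, n = 3) in control and 0.23 ± 0.18 (SD, n = 3) with PTH (exact permutation p = 0.2, two-sided). Between *Bglap1* ILMN_2610166 and *Bglap2* ILMN_2944508 the gap was smaller, 0.11, but the arrays lay close together and the exact permutation p was 0.1. That is the smallest p that 3 arrays against 3 allow, and after Benjamini-Hochberg adjustment over the 16 pairs of probes compared it was 0.229. The 2 *Bglap2* probes differed by 0.02 in their change and the 2 *Bglap1* probes by 0.09, with exact permutation p values of 1.0 and 0.6. With so few arrays a p that misses the threshold does not show that the copies respond alike.

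*Mgp* leaned the other way. Its single probe, ILMN_2666018, read 10.75, 10.75 and 10.54 in control and 11.16, 11.13 and 10.83 with PTH. The PTH arrays were all above the control arrays, and this was also so in the deposited signals, which were 1479, 1791 and 1561 in control and 1970, 2365 and 2624 with PTH. The mean was 10.68 ± 0.12 (SD, n = 3) in control and 11.04 ± 0.18 (SD, n = 3) with PTH, a difference of 0.36 with an SE of 0.14, or 1.29-fold higher. It did not pass, with an unadjusted p of 0.0351 and an adjusted p of 0.293 from limma, and a 95% interval from 0.03 to 0.69.

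The gap between *Mgp* and osteocalcin was also taken within each array. Scaling an array by 1 factor leaves the ratio of its deposited signals as it is. Background correction, the offset and quantile normalization can change the gap between normalized levels, so deposited ratios are also given below. Probes bind with different strength, so the gap itself says nothing of transcript amounts, and only its shift between arrays is read. Against the brighter *Bglap2* probe the gap in log2 was 0.58, 0.53 and 0.62 in control, and 1.50, 1.34 and 1.18 with PTH. The control arrays lay close together and the PTH arrays all lay above them, by 0.76 on average. For the 4 osteocalcin probes the shift was between 0.74 and 0.96, and for each the 6 arrays separated without overlap. In each case the exact permutation p was 0.1, the smallest that 3 arrays against 3 allow, and 0.229 after adjustment over the 16 pairs. These pairs were chosen after the values were seen. In the deposited signals the ratio of *Mgp* to the brighter *Bglap2* probe lay between 1.40 and 1.49 on control arrays and between 2.12 and 2.62 on PTH arrays, and that of *Mgp* to *Bglap1* ILMN_3101908 between 2.63 and 3.15 and between 4.76 and 5.54.

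**Figure D3:**
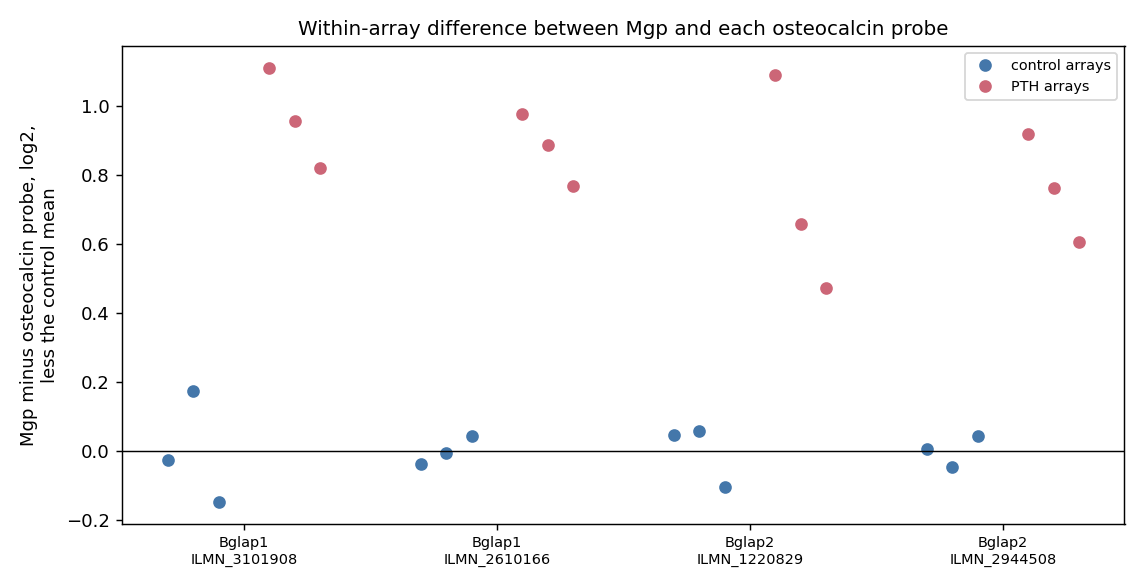
Within-array log2 difference between *Mgp* and each of the 4 osteocalcin probes (x axis), less the mean of the control arrays (y axis, log2), with control arrays in blue and PTH arrays in red, each in the order 1 to 3. For each of the 4 probes all PTH arrays lie above all control arrays, with mean shifts between 0.74 and 0.96.

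*Gas6*, which signals through Axl, Mertk and Tyro3, read 8.35, 8.25 and 8.03 in control and 7.90, 7.92 and 8.13 with PTH. PTH array 3 lay within the control range. The difference was −0.23 with an SE of 0.14 and an adjusted p of 0.523 from limma. Of its receptors, *Axl* differed by −0.03 and *Mertk* by 0.37, neither called, and *Tyro3* was above background on 1 array and was not tested.

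The carboxylase gene *Ggcx* had 4 probes, and these did not give the same picture. On ILMN_2933647 the level was 7.97, 7.94 and 7.46 in control and 7.26, 6.96 and 6.67 with PTH. The groups were apart, also in the deposited signals and under each of the other normalizations tried, although the arrays within each group were spread widely. The difference was −0.82 with an SE of 0.20, or 1.77-fold lower, the largest of any member probe, and limma's adjusted p was 0.110. This probe lay at 2.00 to 2.86 times background, and over the 8 other settings tried its difference ran from −0.91 to −0.52.

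*Ggcx* ILMN_1232184, which was the brightest of the 4 at 2.98 to 3.62 times background, read 8.48, 8.33 and 8.09 in control and 8.13, 7.86 and 7.85 with PTH. Its groups overlapped through PTH array 1 and control array 3, and the difference was −0.35 with an SE of 0.15 and an adjusted p of 0.339 from limma. ILMN_1249282 lay at only 1.15 to 1.36 times background, with a difference of −0.24, and ILMN_1226632 was silent. The change on ILMN_2933647 exceeded that on ILMN_1232184 by 0.47, with the groups apart, an exact permutation p of 0.1 and 0.229 after adjustment over the 16 pairs, the pair being chosen after the values were seen. The 3 tested probes of *Ggcx* thus spanned differences from −0.82 to −0.24.

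*Vkorc1*, the reductase, had the smallest differences of the members. Its brightest probe, ILMN_2522693, read 11.68, 11.45 and 11.46 in control and 11.56, 11.58 and 11.56 with PTH. The difference was 0.04, with a 95% interval from −0.25 to 0.32, and limma's adjusted p was 0.922. ILMN_3002745 differed by −0.09 (adjusted p = 0.840 from limma), and its sign turned under median scaling and when control array 3 or PTH array 3 was left out. ILMN_2497999 read 10.40, 10.43 and 10.30 in control and 10.19, 10.17 and 10.17 with PTH. Its groups were apart at these values, with a difference of −0.20 and an adjusted p of 0.480 from limma. They overlapped under median scaling and in the deposited signals, where PTH array 3, at 1705, was the highest of the 6 arrays. The largest gap in change between *Vkorc1* probes was 0.24, between ILMN_2522693 and ILMN_2497999.

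The rest of the vitamin K cycle was read from 8 genes, of which 6 were tested and none was called by limma, with 1 at an unadjusted p under 0.05. Over all 11979 genes, each by its brightest probe, 1785 had such a p. *Vkorc1l1*, the close relative of the reductase, differed by 0.12, and *Aifm2*, a quinone reductase, also by 0.12. *Nqo1*, another quinone reductase, differed by −0.50. *Calu*, which encodes a calcium-binding protein reported to inhibit the carboxylase, differed by −0.07, and *P4hb*, the protein disulfide isomerase, by −0.23. *Txn1*, thioredoxin, had the highest difference of this list at 0.57, with an adjusted p of 0.316 from limma. *Cyp4f14* and *Cyp4f15* were not tested.

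Of 12 other genes for Gla proteins, 11 were found on the array and 3 were tested. The tested genes were those of coagulation factor X and protein S and a transmembrane Gla protein. Their differences were −0.42 for *F10*, −0.04 for *Pros1* and −0.03 for *Prrg2*, and none was called. *F9*, *Proc*, *Prrg1*, *Prrg4* and *Ucma*, the last a Gla protein of cartilage, were not above background on any array, *F2*, *F7* and *Proz* were above it on 1 array each, and no probe was found for *Prrg3*. *Furin*, the protease that removes the propeptide of osteocalcin, differed by −0.17 and *Ptprv*, a phosphatase known to act in osteoblasts on osteocalcin carboxylation, by −0.24. *Gprc6a* and *Gpr158*, which encode proposed receptors of osteocalcin, were not above background on any array.

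Of 11 genes for regulators of osteocalcin transcription, 9 were tested and 1 was called. *Sp7*, which encodes osterix, a transcription factor needed for osteoblast formation, fell from 12.30 ± 0.02 (SD, n = 3) to 11.49 ± 0.15 (SD, n = 3), by 0.81 in log2 with an SE of 0.13 and an adjusted p of 0.0259 from limma. Its call was lost with any 1 array left out, with limma's adjusted p between 0.0576 and 0.103. The call was also lost under median scaling, at 0.534, and with the replicate number as a block, at 0.0765. The homeobox gene *Dlx3* differed by −0.53 and *Twist1*, which encodes an inhibitor of Runx2, by 0.40, neither called, and *Atf4*, *Vdr*, *Rxra*, *Dlx5*, *Cbfb* and *Bhlhe40* lay between −0.27 and 0.23. *Runx2* itself and *Msx2*, each by its brightest probe, were not above background on any array. The share of all 11979 genes called, each by its brightest probe, was 1.04% lower and 0.685% higher.

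A further 6 genes whose products are partners of matrix Gla protein were also read, namely the ligands *Bmp2* and *Bmp4*, the receptors *Bmpr1a* and *Bmpr2*, and the matrix genes *Fn1* and *Eln*. None of the 5 tested was called. *Bmp2* read 6.74, 6.89 and 6.20 in control and 5.93, 4.74 and 5.28 with PTH, a difference of −1.29 with an SE of 0.31 and an adjusted p of 0.0984 from limma. Its groups were apart, but its signal was above background on only 2 of the 3 PTH arrays. *Fn1*, fibronectin, differed by 0.38 (adjusted p = 0.198 from limma), and *Eln* was not above background on any array.

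**Figure D4:**
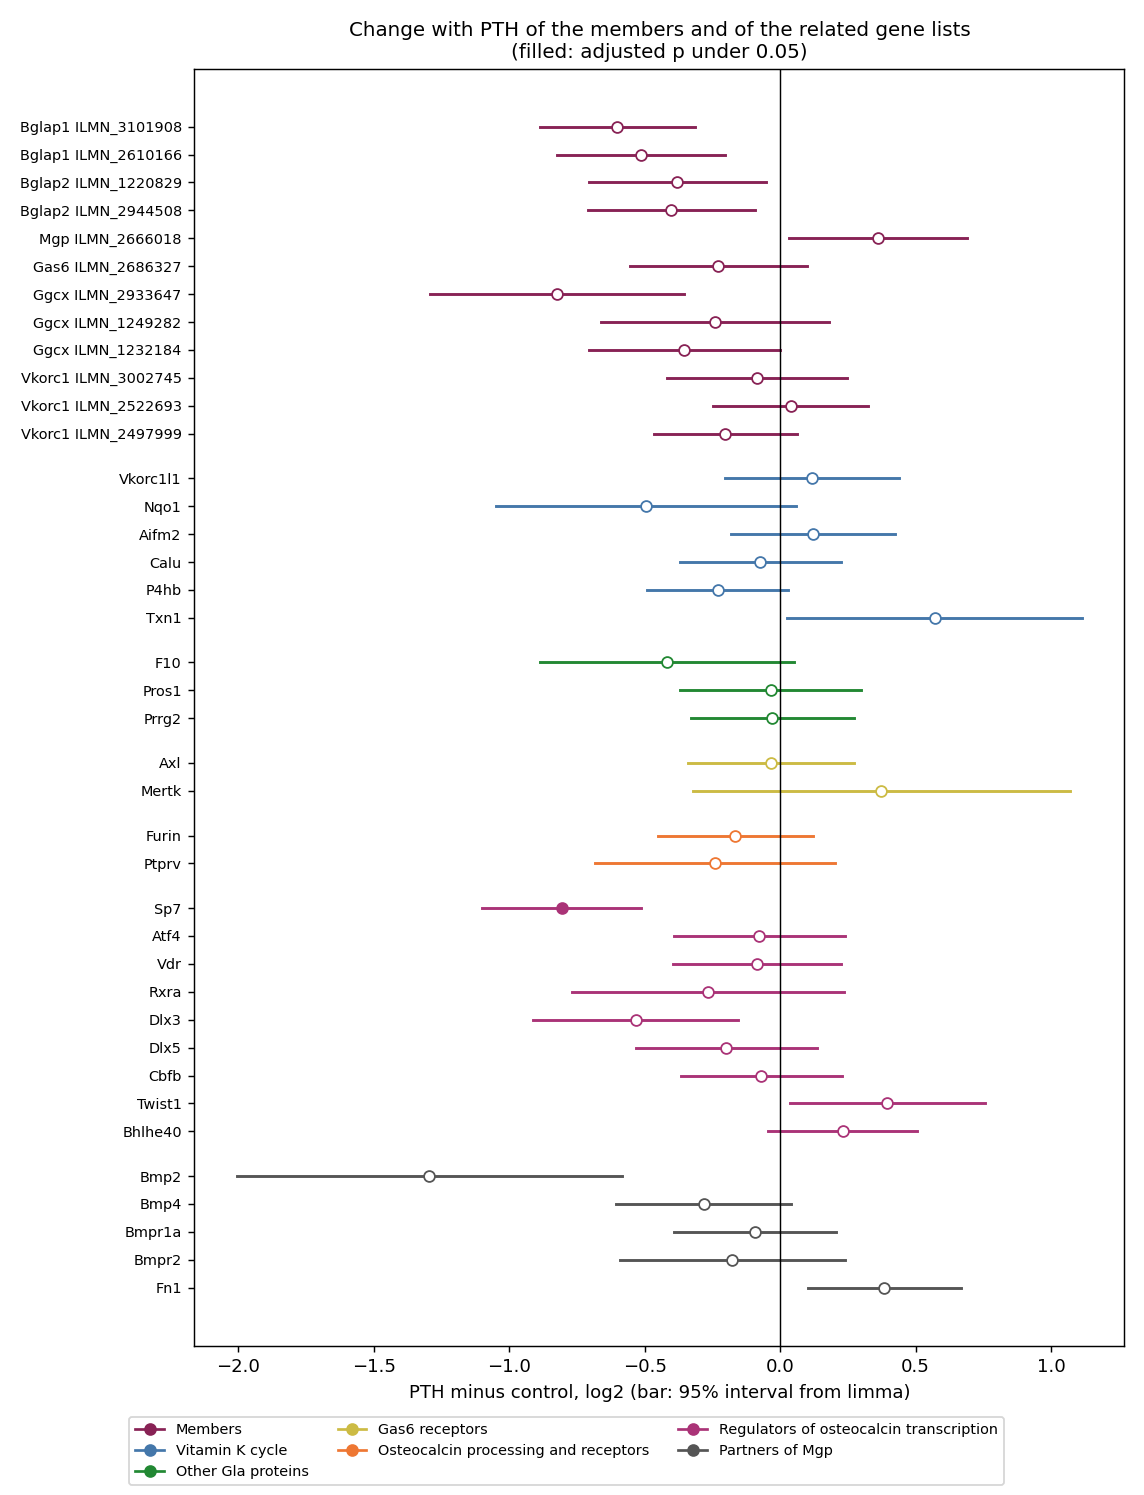
PTH minus control difference in log2 with its 95% interval from limma (x axis) for the 12 tested member probes and each tested gene of the 6 related lists (y axis, brightest probe of each gene), coloured by list. Only *Sp7* is filled, meaning an adjusted p under 0.05, and the member intervals that exclude 0 are those of the 4 osteocalcin probes, *Ggcx* ILMN_2933647 and ILMN_1232184, and *Mgp*.

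Marker genes of the cells these members are known from moved between the groups as well, and their part in the differences above was not tested. Of 10 tested osteoblast and osteocyte markers 3 were called lower by limma, *Ibsp* (−2.01), *Mepe* (−1.02) and *Sp7*, beside 1.04% of all genes. The mean was lower in 8 of the 10, with a list median of −0.84. An unadjusted p under 0.05 from limma was found for 9, *Pdpn* among them, and for 1785 of all 11979 genes. *Dmp1* (−1.21, adjusted p = 0.0557 from limma), *Phex* (−0.88), *Sost* (−1.21), *Col1a1* (−0.54) and *Alpl* (−0.36) were lower without being called. The summed normalized signal of the list went from between 40730 and 43480 in control to between 28590 and 31080 with PTH. In 2 of the 10 the mean was higher with PTH, *Pdpn* at 0.70, with all PTH arrays above all control arrays and an adjusted p of 0.0560 from limma, and *Col1a2* at 0.01. *Mepe*, *Dmp1* and *Phex* were above background on all 6 arrays, and *Sost*, an osteocyte gene, on 3 control arrays and 1 PTH array. *Ibsp* was called in each fit that left out 1 array, whereas the count over the list was between 1 and 3 in those fits. For the sources of *Mgp*, the cartilage list summed to between 1041 and 1059 in control and between 1091 and 1116 with PTH. Its median difference, with *Acan* counted, was −0.47. The sum is mostly that of *Sox9*, the brightest gene of the list, which differed by 0.32, whereas *Col2a1* differed by −0.47 and *Col10a1* by −0.90. *Col10a1* was above background on 3 control arrays but only 1 PTH array, so control arrays alone sufficed for it to be tested. In that list 4 of 5 tested genes, *Acan* among them, had an unadjusted p under 0.05. *Matn1*, *Matn3* and *Hapln1* were not above background on any array. Only *Acan* was called by limma, lower with PTH, but it passed the detection filter through the 3 control arrays alone. It was above background on no PTH array, so its call is not read as a change of the cartilage list and no fold is given for it. Its call was lost without PTH array 2 (adjusted p = 0.0529 from limma), and without any 1 control array it was not tested, being above background on fewer arrays than the filter asks. The vascular smooth muscle list summed to between 5171 and 5588 and between 4733 and 4983, with 0 of 3 called by limma, 2 at an unadjusted p under 0.05, and *Myh11*, *Cnn1* and *Lmod1* not above background on any array. That sum is mostly *Acta2*, with a control mean of 12.29, which differed by −0.12, whereas *Tagln* differed by −0.49 and *Des* by −0.42. The endothelial list summed to between 1503 and 1680 and between 1453 and 1499, with 0 of 7 called and 1 at an unadjusted p under 0.05. Of 5 tested fibroblast and tendon genes 2 were called higher by limma, *Col3a1* by 0.92 and *Dcn* by 0.83, beside 0.685% of all genes. *Lum* was higher by 0.61 without being called, and the mean was lower in the other 2. The list summed to between 3254 and 3314 and between 4932 and 5592, and neither call held when any 1 array was left out.

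Blood and marrow genes were present despite the flushing. For the counts below, 1.04% of all 11979 genes were called lower and 0.685% higher by limma. Of all genes, 1785 had an unadjusted p under 0.05 from limma, and 1325 had all PTH arrays above all control arrays. Both tested red cell genes were called lower by limma, with a list median of −1.93. The red cell list summed to between 8614 and 10060 in control and between 2404 and 2676 with PTH. Of 7 neutrophil genes 4 were called lower, and all 7 had a lower mean at an unadjusted p under 0.05 from limma. The neutrophil list summed to between 51890 and 52620 and between 33630 and 38110. With any 1 array left out between 0 and 1 of the neutrophil genes was called. Of 4 tested osteoclast genes 2 were called higher by limma, *Acp5* and *Mmp9*, while *Dcstamp* at 1.08 and *Ctsk* at 0.36 were not called. All 4 had an unadjusted p under 0.05 from limma and all PTH arrays above all control arrays. The osteoclast list summed to between 11850 and 13310 and between 16000 and 20480, and between 0 and 1 of its genes was called with 1 array left out. None of 5 macrophage, 4 B lymphocyte and 3 fat genes was called by limma, with 2, 3 and 2 at an unadjusted p under 0.05, and all 6 skeletal muscle genes were not above background on any array.

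Genes whose levels followed those of a member most closely over the 6 arrays are named as a description, since 6 arrays in 2 groups leave many genes with high correlations. For the brighter *Bglap2* probe these were *Asna1* (Pearson r = 0.997), *0610012D14Rik*, now *Aspdh* (0.997), *Mbnl1* (0.993), *1200015E14Rik*, now *Ulk3* (0.992), and *2900026A02Rik* (0.991), among 11972 genes compared. For *Mgp* they were *1810022K09Rik*, now *Rbis* (0.998), *Agpt2*, now *Angpt2* (0.992), *Sms* (0.990), *Igfbp5* (0.987) and *Nfyc* (0.987). None of these 10 genes was called, and *Igfbp5*, which encodes an insulin-like growth factor binding protein of bone matrix, had the largest difference of them, at 0.54 with an adjusted p of 0.137 from limma.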

How the data were processed

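The authors deposited, for each of 6 arrays, the signal intensity of every probe on a linear scale, without normalization, and a detection p-value against the negative controls of that array, written by GenomeStudio as named in the submitters' processing notes. The genome build behind the probe annotation is not given in the sources used here. All columns of values were used. Arrays were assigned to groups from their titles.

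Intensities were background corrected by normexp through the detection p-values, given an offset of 16, quantile normalized and taken to log2 (neqc, limma 3.58.1, R 4.3.3). PTH and control were compared over all probes with a detection p-value under 0.05 on at least 3 arrays in limma (lmFit, then eBayes), and p-values were adjusted over them by Benjamini-Hochberg. The number of arrays limits the precision. Pairs of probes were compared by exact permutation (scipy 1.17.1). Probes or genes named are all member probes, genes of the lists and the 5 genes most like *Bglap2* and *Mgp*. Each list gene was read from its brightest probe, tested ones first. Where a list gene is said not to be above background, that holds for this probe. Some items are not reported here. Members and lists were chosen with earlier results of these data known. Current names and positions are those of RefSeq on GRCm38.p6. The procedure was tested on simulated data. Alternatives were other background corrections, scalings and detection filters, the replicate number as a block, and each array left out in turn. List genes were put through the same alternatives after the data were seen.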

Additional observations from a re-analysis of the deposited data

How the results depend on the processing

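The number of member probes called, 0 as reported, was 4 with quantile normalization without background correction, 3 with an offset of 50, and 2 with a detection p under 0.01 required on all 6 arrays. It was 0 with background subtraction, median scaling, cyclic loess, no detection filter, the replicate block, and each array left out. The probes called with quantile normalization alone were both tested *Bglap1* probes, *Bglap2* ILMN_2944508 and *Ggcx* ILMN_2933647. The number of genes called over all genes, 207 as reported, was 589 with quantile normalization alone, 402 with an offset of 50, 340 with the stricter detection filter, 104 with median scaling and 44 with the replicate block, and lay between 50 and 95 with 1 array left out, the lowest without control array 1. The share of called genes that were higher with PTH was 39.6% as reported and 60.6% with median scaling. Same-numbered arrays deviated together with r of 0.067, 0.064 and 0.273. Control array 1 was about as close to PTH array 2, with an r of 0.073. Array 3 of each group had an r between −0.142 and −0.134 with the differently numbered arrays of the other group. The numbers were not taken to pair the samples, and whether same-numbered preparations share a source was not tested.

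Of the recomputed member differences, 154 kept their direction and side of the threshold, 9 passed it, and 4 turned sign, all in *Vkorc1*. *Vkorc1* ILMN_3002745 was 0.06 under median scaling and between −0.15 and 0.0031 with 1 array left out, and ILMN_2522693 between −0.0028 and 0.11. The differences in change between osteocalcin probes moved as well. That of *Bglap1* ILMN_3101908 less *Bglap2* ILMN_2944508, −0.20 as reported, was −0.31 without control array 2 and −0.11 without control array 3. That of the 2 *Bglap1* probes, −0.09 as reported, was 0.0051 without control array 3. That of the 2 *Bglap2* probes, 0.02 as reported, turned sign in some fits with 1 array left out. The cause of these changes was not tested. Dim probes, such as *Ggcx* ILMN_1249282, are limited by their small distance from background.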
